A study of Mus musculus with 8 samples.

Results

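The 9 genes described here encode factors of pancreatic progenitors, ducts and acinar cells, or mark those cells: Sox9, Prox1, Neurog3, Pax4, Ptf1a, Rbpjl, Nr5a2, Bhlha15 and Cpa1. They were chosen by gene symbol, 1 row for each, out of 55536 genes in the deposited count table. The libraries hold RNA of MIN6, a mouse line from a pancreatic β-cell tumour that makes insulin. Plasmids were delivered with the lipid reagent Lipofectamine 3000, and RNA was measured 48 h after this transfection. The 4 control libraries came from cells given the empty vector pcDNA 3, and the 4 Klf4 libraries from cells given the plasmid pGloMyc-Klf4, which expresses the zinc-finger transcription factor Klf4. Batch 1 held replicates 1 and 2 of each group, and batch 2 held replicates 3 and 4. All 8 libraries came from 1 cell line. The plasmid names point to unlike backbones, so an effect of the backbone and one of Klf4 cannot be told apart. The labels call the replicates biological but name no separate cultures, so the p-values measure the spread between these libraries.

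In the developing pancreas, a common progenitor gives rise to ducts, enzyme-secreting acinar cells and hormone-secreting endocrine cells. Sox9 maintains the progenitors and later marks ducts, and a pulse of Neurog3 commits single cells to the endocrine fate, after which Pax4 acts in the β-cell and δ-cell lineages. Ptf1a, a basic helix-loop-helix protein, works in a complex with an E protein and Rbpj in progenitors and with the acinar protein Rbpjl in acinar cells, where Nr5a2 and Bhlha15 (Mist1) also act. Mature β cells keep most of these genes low. KLF factors bind GC-rich elements, among them the CACCC box.

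Promoters are shown for 3 of the 9 genes, chosen for what the libraries contained: Prox1, the only tested gene of the 9 to pass the threshold, Ptf1a, with the most reads among the 6 too low to test, and Bhlha15, whose levels overlapped between the groups. Each run is the 250 bases before a RefSeq transcription start in build GRCm38.p6, 5′ to 3′ on the strand of the gene, with CACCC or its reverse complement GGGTG in capitals. The regions are chr1:190170828-190171077 on the minus strand for Prox1, chr2:19445413-19445662 on the plus strand for Ptf1a, and chr5:144190036-144190285 on the plus strand for Bhlha15.
Prox1: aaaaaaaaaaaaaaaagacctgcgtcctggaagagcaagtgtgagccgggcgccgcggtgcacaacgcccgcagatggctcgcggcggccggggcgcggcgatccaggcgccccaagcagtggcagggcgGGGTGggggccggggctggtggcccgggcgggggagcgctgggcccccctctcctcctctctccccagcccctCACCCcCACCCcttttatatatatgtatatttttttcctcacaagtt
Ptf1a: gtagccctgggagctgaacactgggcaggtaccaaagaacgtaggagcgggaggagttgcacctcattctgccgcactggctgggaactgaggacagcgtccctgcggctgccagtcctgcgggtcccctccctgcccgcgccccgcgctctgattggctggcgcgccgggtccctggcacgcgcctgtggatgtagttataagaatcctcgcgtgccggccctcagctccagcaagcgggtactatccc
Bhlha15: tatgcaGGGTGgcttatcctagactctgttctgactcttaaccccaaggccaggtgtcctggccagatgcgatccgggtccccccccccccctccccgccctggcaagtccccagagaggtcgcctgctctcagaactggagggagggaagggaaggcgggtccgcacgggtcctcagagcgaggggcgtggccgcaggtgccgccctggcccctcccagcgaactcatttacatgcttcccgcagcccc

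The Prox1 window held 3 CACCC matches, of which 2 stood next to each other, at -47 to -43 and -41 to -37 from the start, and the third lay on the other strand at -120 to -116. The longer form CCCCACCC, which contains CACCC, matched there at 2 places. Bhlha15 held 1 CACCC match, at -244 to -240 from its start, and Ptf1a held none. A match on either strand is common: CACCC occurred in 52% of 32851 promoter windows of that length, and CCCCACCC in 9.05%. Of the 9 genes, 7 were matched to the RefSeq table, and Sox9 and Pax4 were not. A further start listed for Prox1 held no match, and the starts of Nr5a2 held 0 and 3. Neurog3 held 1 match, which was part of a CCCCACCC match at -151 to -144, and Cpa1 and Rbpjl held none. These matches describe letters in a window and are not binding sites.

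**Figure D1:**
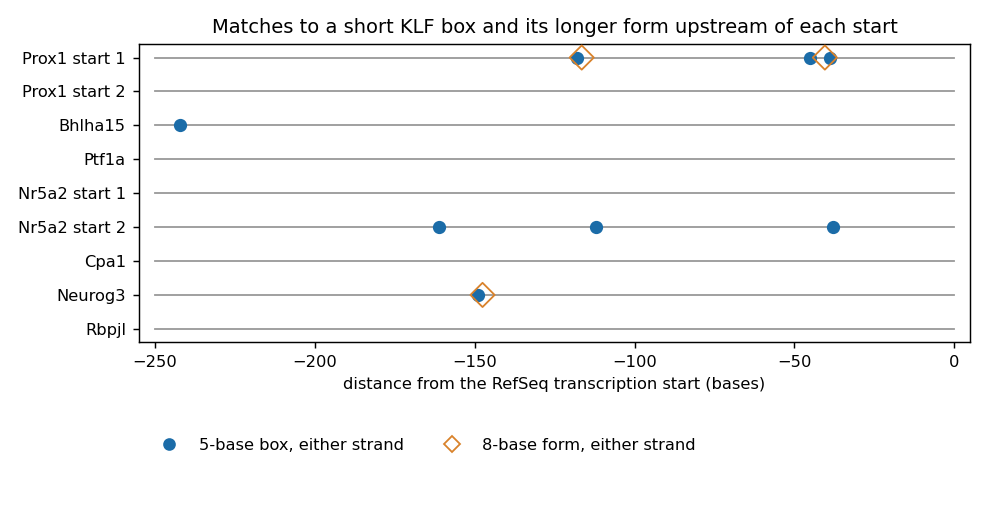
Matches to the 5-base box (filled circles) and its 8-base form (open diamonds), on either strand, against distance in bases from the RefSeq transcription start, 1 line for each start of the 7 genes matched. Prox1 start 1 has 3 matches to the 5-base box, Nr5a2 start 2 has 3, and Ptf1a, Cpa1 and Rbpjl have none.

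The libraries held 47017647 to 49504167 counted reads in the control group and 45417853 to 52731176 in the Klf4 group. Counts of the Klf4 gene itself were 2014, 2060, 1929 and 1743 in control and 251826, 205171, 257862 and 308667 in Klf4 libraries, as the labels say, with plasmid and endogenous reads counted together. Between 24509 and 25446 genes had a count in control libraries and between 26414 and 27216 in Klf4 libraries. Marker levels are summed CPM, read counts relative to TMM-adjusted library size. The 8 β-cell markers summed to between 24476.8 and 31259.1 in control and between 22913.1 and 31574 in Klf4 libraries. Ins2 made up most of both sums, with means of 16807 CPM in control and 16534 CPM in Klf4 libraries. Its log2 difference between batches was -0.46 (batch 2 over batch 1). Of the 8 β-cell markers, 0 were called higher and 3 lower, against 21.1% and 15.5% of all genes that passed the filter. The 7 acinar markers summed to at most 0.166 and 0.303, with Cpb1, Prss2 and Amy2a5 at 0 in all 8 libraries. The 7 mesenchymal markers, of which Lum was at 0 in all 8, summed to 2.65 to 3.92 in control and 21.1 to 27.5 in Klf4 libraries. Dcn made up most of the Klf4 sum, with means of 0.0461 CPM in control and 17.6 CPM in Klf4 libraries. Of the 7 mesenchymal markers, 4 passed the filter and 3 were higher, against 21.1% of all genes that passed the filter. Dcn and Pdgfra passed through the Klf4 libraries alone, and Col1a2 was not called (1.34 and 1.42 CPM, edgeR adjusted p = 0.734). The part of these markers in the results below was not tested.

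Of the 9 genes, Prox1, Pax4 and Bhlha15 had enough reads to be tested, and Prox1 was higher in the Klf4 libraries. The other 6 had at most 18 counts in any library and stayed below the filter on low counts. With edgeR's quasi-likelihood test and a batch term, 1 of the 3 tested genes was called higher and 0 lower at an adjusted p under 0.05; none of the 3 reached an unadjusted p under 0.05 in the lower direction. Over all 18266 tested genes, 36.6% were called, 21.1% higher and 15.5% lower. In bulk RNA, a change in the number of cells that express a gene and a change in RNA per cell cannot be told apart.

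**Figure D2:**
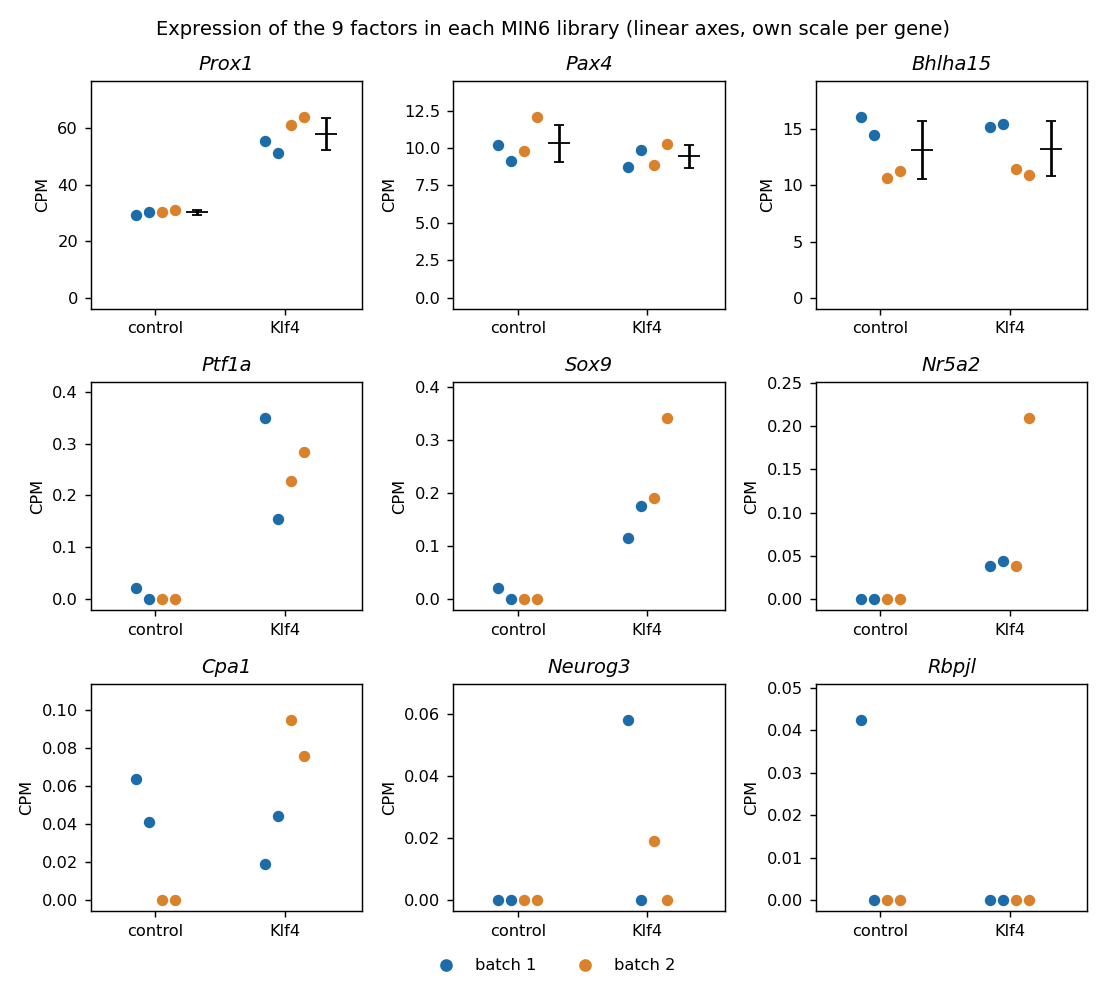
CPM of the 9 genes in each of the 8 libraries, with a linear axis of its own for each gene. Points are libraries coloured by batch, and bars beside the 3 tested genes are mean ± SD of 4 libraries. Prox1, Ptf1a, Sox9 and Nr5a2 have every Klf4 library above every control library, and Pax4 and Bhlha15 overlap.

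Prox1 encodes a homeobox factor of progenitors that stays on in parts of the adult islet and ducts. It lies on the minus strand of chromosome 1 (GRCm38, 190118035 to 190170714, ENSMUSG00000010175). Prox1 had 29.2, 30.4, 30.3 and 31.1 CPM in the control libraries and 55.3, 51.3, 61.2 and 63.8 in the Klf4 libraries. The lowest Klf4 library lay well above the highest control library. The mean rose from 30.2 ± 0.785 to 57.9 ± 5.68 CPM (SD, n = 4 each), 1.91-fold, or 0.93 on the log2 scale (SE 0.04, edgeR adjusted p = 6.49e-14). Within batch 1 the log2 fold change was 0.84 and within batch 2 it was 1.03. Prox1 exons share 133 bases with the antisense gene Prox1os, which had 1 to 10 counts in any library against 1373 or more for Prox1.

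Sox9, an HMG-box factor of progenitors and ducts, had 1 read over all control libraries and a few in each Klf4 library. Its gene lies on chromosome 11 (112782224 to 112787760, plus strand, ENSMUSG00000000567). The control libraries held 1, 0, 0 and 0 counts and the Klf4 libraries 6, 8, 10 and 18, with the Klf4 library higher in both batches. Over each group, 1 count stood against 42, a ratio of 40.1 with a 95% interval of 6.82 to 1623 that covers counting error alone. The exact two-sided permutation p of 0.0286 was the smallest that 4 against 4 libraries can give. Relabelling within batch, a setting chosen after seeing the data, allows 36 arrangements and gave an exact permutation p of 0.0556 for Sox9, Ptf1a and Nr5a2, the smallest possible there, so none of the 3 passed 0.05 that way. In the Klf4 libraries the level was 0.206 ± 0.0957 CPM (SD, n = 4), far below that of Prox1.

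Of 16 other progenitor genes, 12 passed the filter, 5 higher and 5 lower, against 21.1% higher and 15.5% lower over all tested genes. The median log2 fold change of the 12 was -0.01, beside -0.01 for all tested genes. GATA factors, which act in pancreatic progenitors, had near-zero control levels and passed the filter through the Klf4 libraries alone, which selects for a rise. Among the other 10 genes, 3 were higher. Gata4 went from 0.0574 ± 0.0367 to 2.47 ± 0.876 CPM (a log2 difference of 5.36, SE 0.33, edgeR adjusted p = 6.71e-12), and Gata6 from 0.0788 ± 0.0957 to 2.67 ± 0.453 CPM (5.06, SE 0.37, adjusted p = 1.39e-10). Hes1, a Notch target of progenitors, rose from 15.5 ± 1.64 to 21.1 ± 3.58 CPM (0.44, SE 0.06, adjusted p = 4.73e-06). Foxa1, a pioneer factor, rose by a log2 fold change of 0.63 (SE 0.14, adjusted p = 0.00134), and Pdx1, which progenitors and β cells share, fell by 0.12 (adjusted p = 0.00367). The calls of Foxa1 and Pdx1 were lost without a batch term.

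Of 15 ductal genes, 14 passed the filter, with 11 higher and 0 lower, against 21.1% higher and 15.5% lower over all tested genes. Their median log2 fold change of 0.92 includes genes that passed through the Klf4 libraries alone. No gene of the 14 was lower at an unadjusted p under 0.05. Krt18 (-0.03, edgeR adjusted p = 0.941), Spp1 (0.05, 0.929) and Car2 (0.44, 0.413) were not called. Cftr stayed under the filter, with 4 counts over the control and 16 over the Klf4 libraries. Of the 14, 6 passed through the Klf4 libraries alone, which selects for a rise. Of these 6, 4 were higher, Aqp1, Krt19 and Tspan8 among them. Among the other 8 of the 14, 7 were higher. Aqp1, a water channel of duct cells, went from 0.0775 ± 0.0542 to 10.8 ± 2.01 CPM (log2 fold change 7.08, SE 0.21, edgeR adjusted p = 2.06e-17). Krt19, a keratin used here as a duct marker, went from 0.237 ± 0.0842 to 3.24 ± 0.712 CPM (3.76, SE 0.20, adjusted p = 3.67e-13). Tspan8, a tetraspanin, had 3.38 ± 0.455 CPM in the Klf4 libraries against 0.0826 in control (5.31). Slc4a4, a bicarbonate transporter, rose from 0.389 ± 0.159 to 2.05 ± 0.289 CPM (2.39, SE 0.24, adjusted p = 3.03e-08), and Clu rose by 0.18 (SE 0.03, adjusted p = 2.26e-05). The summed level of the 6 ductal markers, which include Sox9, was mostly Krt7 (83.6 of 87.5 CPM in control replicate 1). In batch 1 the sum was 87.5 and 85.4 CPM in control against 110.8 and 111.0 CPM in Klf4 libraries, and in batch 2 it was 58.3 and 56.1 against 72.3 and 79.2 CPM, so the Klf4 libraries were higher within each batch.

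Neurog3 and Pax4, the endocrine members of the set, showed no called change. Neurog3 had 0 counts in every control library and 3, 0, 1 and 0 in the Klf4 libraries, so a difference was not detectable at this depth (edgeR without the filter, adjusted p = 0.438). Its exons on chromosome 10 (62133090 to 62134763, plus strand) share 273 bases with Fam241b on the other strand. A count of 0 over a group allows up to 0.0155 CPM in control. Pax4, a paired-homeodomain factor, had 10.2, 9.14, 9.82 and 12.1 CPM in control and 8.73, 9.87, 8.90 and 10.2 CPM in Klf4 libraries, and these overlap. The means were 10.3 ± 1.25 and 9.44 ± 0.736 CPM (log2 fold change -0.13, SE 0.08, edgeR adjusted p = 0.242). Pax4 lies on chromosome 6 (28442334 to 28449353, minus strand, ENSMUSG00000029706).

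All 14 endocrine commitment genes passed the filter, 2 higher (1 of them through the Klf4 libraries alone) and 4 lower. Over all tested genes, 21.1% were higher and 15.5% lower. The median log2 fold change of the 14 was -0.06. Sox11, an HMG-box factor of endocrine precursors, rose from 5.48 ± 1.17 to 7.39 ± 1.24 CPM (0.44, SE 0.09, edgeR adjusted p = 0.000381), a call lost without the batch term. Myt1, a zinc-finger factor of endocrine precursors, fell from 185.7 ± 1.86 to 161.2 ± 6.28 CPM (-0.21, SE 0.03, adjusted p = 6.02e-06). Pax6, the paired-box factor with the highest mean of the list, went from 283.4 to 271.4 CPM (-0.06, adjusted p = 0.133) and was not called. It was called lower without the filter (adjusted p = 0.0446), without control replicate 1 (0.0459) or 2 (0.0371), and without Klf4 replicate 2, where its log2 fold change was -0.10 (0.0103).

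Ptf1a was the most abundant of the acinar transcription factors too low to test. Its control libraries held 1, 0, 0 and 0 counts and its Klf4 libraries 18, 7, 12 and 15, so no Klf4 library was as low as any control library. The ratio of 52 counts to 1 was 49.7, with a 95% counting interval of 8.53 to 2000, and the exact two-sided permutation p was 0.0286. The Klf4 libraries had a mean of 0.254 ± 0.0824 CPM (SD, n = 4). Its exons on chromosome 2 (19445663 to 19447501, plus strand, ENSMUSG00000026735) share 609 bases with Ptf1aos on the minus strand, which had 0 counts in control and 1, 1, 1 and 0 in Klf4 libraries. Without a stated strand setting, reads of the antisense gene cannot be told apart in the shared bases.

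Nr5a2, a nuclear receptor that binds DNA beside the PTF1 complex at acinar genes, had 0 counts in every control library and 2, 2, 2 and 11 in the Klf4 libraries. The 17 counts stood 5.42-fold above the floor of 3 counts over the control group, and the ratio of 17 to 0 had a lower 95% counting bound of 3.94. The single library Klf4 replicate 4 held 11 of them, and without it the fold over the floor was 2.58. The exact two-sided permutation p was 0.0286. The gene lies on chromosome 1 (136842571 to 136960448, minus strand, ENSMUSG00000026398). In a fit without the filter on low counts, edgeR called Nr5a2 (adjusted p = 0.0238) but not without that library (0.251), without control replicate 3 (0.0738) or 4 (0.0716), or with the replicate block (0.0775). In that fit Ptf1a (adjusted p = 4.24e-07), Sox9 (2.58e-05) and Prox1 were also called higher, 4 of 9 against 12.7% of 33674 genes. That share includes genes with too few reads to be called, so it is not matched for read number.

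Among the 9 genes, 4 had every Klf4 library above every control library (Sox9, Ptf1a, Nr5a2, Prox1), against 11.6% of the 33674 genes with a count. Of the 4 with at most 1 control count in all (Sox9, Ptf1a, Nr5a2, Neurog3), 3 did so, against 9.16% of 6018 such genes. Both shares include genes with too few reads to have a count in every Klf4 library, so neither is matched for read number. The 9 genes were also chosen with earlier results of these data known, so no conclusion is drawn from these counts. No gene of the 9 had every Klf4 library below every control library.

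Rbpjl, the acinar partner of Ptf1a, had 2, 0, 0 and 0 control counts and 0 in every Klf4 library, and its exons share 149 bases with Matn4 on the other strand. Cpa1, which encodes the digestive enzyme carboxypeptidase A1 and marks progenitor tips, had 3, 2, 0 and 0 counts in control and 1, 2, 5 and 4 in Klf4 libraries. The ratio of 12 to 5 was 2.29 with a 95% counting interval of 0.752 to 8.31, and the exact two-sided permutation p was 0.229. Rbpjl lies on chromosome 2 (164403141 to 164415448, plus strand) and Cpa1 on chromosome 6 (30639218 to 30645363, plus strand). Bhlha15 (Mist1; chromosome 5, 144190286 to 144194441, plus strand), a basic helix-loop-helix factor of secretory maturation, had 16.02, 14.4, 10.6 and 11.3 CPM in control and 15.2, 15.4, 11.4 and 10.9 in Klf4 libraries. Its groups overlapped, and the means of 13.1 ± 2.56 and 13.2 ± 2.42 CPM differed by 0.01 on the log2 scale (SE 0.06, edgeR adjusted p = 0.889).

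Of 33 acinar secretory genes, 28 stayed under the filter with at most 16 counts in any library, and 10 of the 33 had no count at all. Of the 5 that passed, edgeR called 0 (36.6% over all tested genes), with 1 at an unadjusted p under 0.05. Among these 5, Amy1 had means of 4.95 CPM in control and 4.67 CPM in Klf4 libraries (edgeR adjusted p = 0.668). Cela1 had 2.54 and 2.03 CPM (adjusted p = 0.135). Neither is among the acinar markers summed above. Amy1 exons share 1128 bases with Rnpc3 on the same strand, so its reads cannot be told apart there. Cela1 was called lower without control replicate 2. All 8 genes of exocrine secretory maturation passed, 3 higher and 1 lower, against 21.1% higher and 15.5% lower over all tested genes. Of these 8, 2 passed through the Klf4 libraries alone and both were higher, and among the other 6 the count was 1 higher. Gjb1, a gap junction protein, went from 0.130 ± 0.0869 to 7.41 ± 1.04 CPM (5.81, SE 0.21, edgeR adjusted p = 5.04e-16) and passed through the Klf4 libraries alone. Rab3d, a granule GTPase, rose by 0.23 (SE 0.03, adjusted p = 3.24e-06). Ern1, a sensor of unfolded protein, fell by 0.13 (SE 0.04, adjusted p = 0.00539), a call lost without the batch term, and Xbp1, its target, had 120.0 and 126.2 CPM (0.07, adjusted p = 0.0749). Xbp1 was called higher with scaling by abundant genes (adjusted p = 0.00824) and with a filter at 1 CPM in 4 libraries (0.0335).

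**Figure D3:**
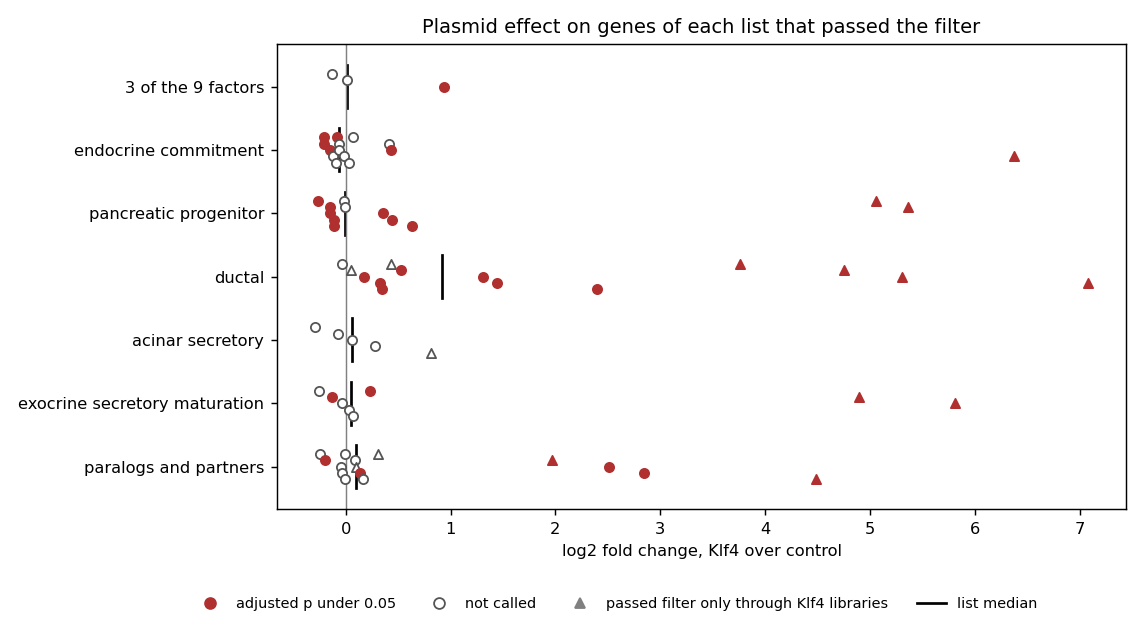
Log2 fold change, Klf4 over control, of each gene that passed the filter, by list, with filled symbols for adjusted p under 0.05, triangles for genes that passed through the Klf4 libraries alone, and a line at each list median. The ductal list has a median of 0.92, and the endocrine commitment and progenitor lists have medians of -0.06 and -0.01.

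Of 21 paralogs and partners of the 9 genes, 15 passed the filter, 5 higher and 1 lower, against 36.6% called over all tested genes. Of the 15, 4 passed through the Klf4 libraries alone, with 2 higher, and among the other 11 the count was 3 higher. Sox8, a paralog of Sox9, rose from 0.597 ± 0.172 to 4.29 ± 0.588 CPM (2.84 on the log2 scale, SE 0.18, edgeR adjusted p = 1.13e-11), and Pax5, of the same paired-box family as Pax4, rose from 0.418 ± 0.126 to 2.39 ± 0.386 CPM (2.51, adjusted p = 1.04e-09). The E proteins that pair with Ptf1a and Neurog3 had smaller values: Tcf3 rose by 0.14 (SE 0.03, adjusted p = 0.0018), Tcf4 fell by 0.19 (SE 0.03, adjusted p = 0.000104), and Tcf12 had 122.1 and 118.4 CPM (-0.04, adjusted p = 0.276).

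Levels of different genes were compared per kilobase of exon. In control libraries Pax4 was highest at 7.13 ± 0.864 CPM per kb, and its libraries did not overlap with those of Bhlha15 (3.75 ± 0.731) or Prox1 (3.60 ± 0.0936), whose order lay within their spread. Cpa1 followed at 0.0150 CPM per kb, Ptf1a at 0.00352, Rbpjl at 0.00185 and Sox9 at 0.00128, each from at most 5 counts, and Nr5a2 and Neurog3 were at 0. In Klf4 libraries Prox1 (6.90 ± 0.676 CPM per kb) and Pax4 (6.53 ± 0.510) lay within their spread, Bhlha15 was at 3.78 ± 0.693, and Ptf1a was highest of the other 6 at 0.168 ± 0.0546. Length by the longest transcript put Prox1 (3.82 CPM per kb) above Bhlha15 in control.

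Bhlha15 was the clearest case of a batch difference, with 16.02 and 14.4 CPM in batch 1 against 10.6 and 11.3 in batch 2 of the controls, and the same order in the Klf4 libraries. Its batch term was -0.47 (SE 0.06, edgeR adjusted p = 6.42e-06, batch 2 over batch 1). Prox1 was higher in batch 2 by 0.14 (SE 0.04, adjusted p = 0.0191), a call lost without Klf4 replicate 2 (0.102) or Klf4 replicate 4 (0.0804), and Pax4 was not called (0.11, adjusted p = 0.353). Of the 9 genes, 2 of 3 tested genes differed between batches, against 25.1% of all tested genes. For an interaction of batch and plasmid, edgeR called 0 of the 3, against 0.766% of all tested genes, with 1 at an unadjusted p under 0.05. That was Prox1 (0.19 on the log2 scale, unadjusted p = 0.0243, adjusted p = 0.364).

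**Figure D4:**
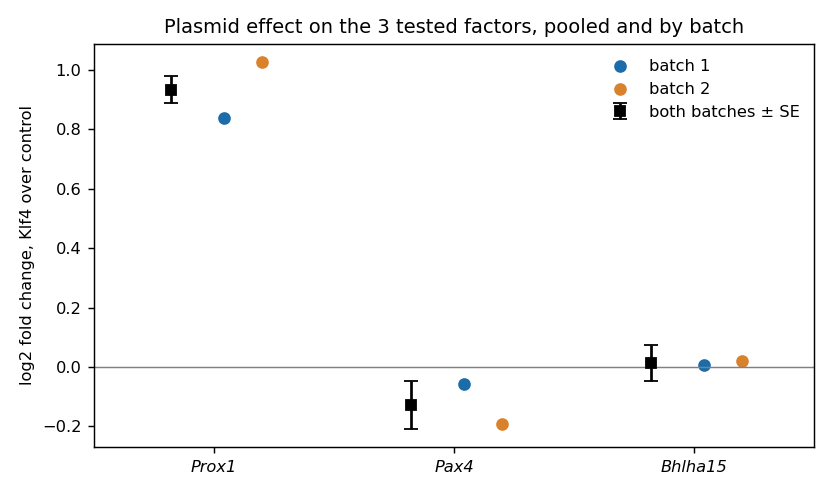
Log2 fold change, Klf4 over control, of the 3 tested genes, in both batches together (squares, ± SE) and within each batch (circles). Prox1 lies at 0.84 and 1.03 in the batches, and Pax4 at -0.06 and -0.19, and Bhlha15 at 0.01 and 0.02.

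The genes with the most similar levels over the 8 libraries, by Pearson correlation of log2 CPM among genes of average log2 CPM of at least 1, were Nectin2 (r = 0.999), Anxa7 (0.998) and Dcun1d4 (0.998) for Prox1. All were higher with Klf4, by 0.42, 1.14 and 0.86. For Pax4 they were Scrn2 (0.948), Doc2g (0.942) and Zmym3 (0.941), and for Bhlha15 Fgf1 (0.989), Gabbr2 (0.987) and Nes (0.986), none of them called. The 8 points share plasmid, batch and library depth, so these values only describe the libraries.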

How the data were processed

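The authors deposited whole-number read counts per gene, 1 column per library, not normalised or pooled, and these counts were used as deposited. The submitters' processing notes name FastQC, STAR, featureCounts, edgeR and build mm10, without versions or roles. The name of the deposited table gives cutadapt trimming. The strand setting and annotation are not given in the sources used here. All 55536 identifier and symbol pairs matched GENCODE M21 (GRCm38), which supplied coordinates and lengths. Per the labels' protocols, libraries of polyadenylated RNA were made with a Tecan kit. The RNA extraction text mentions islets, whereas the labels name MIN6 for all 8 samples.

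Genes were filtered with filterByExpr (minimum count 10), scaled by TMM and fitted in edgeR 4.0.16 (limma 3.58.1, R 4.3.3) with terms for batch and plasmid. Calls were made at a Benjamini-Hochberg adjusted p under 0.05 over 18266 genes. CPM, permutation tests over 70 relabellings and counting intervals were computed from the counts in R, and relabelling within batch with Python 3.11.15. SE was taken from the log2 fold change and F statistic. Levels per kb used the union of exons. Intervals and floors (3 counts over a group) cover counting error only.

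The 9 genes and all lists were chosen with earlier results of these data known. Named genes were the 9, Klf4, up to 4 called genes per list with average CPM of at least 1 by size of change, the most abundant gene of each list, and the 3 most similar genes per tested gene. A result that this rule would name is not reported here. Same-numbered libraries of both groups deviated together (r = 0.459 to 0.613 over 10482 genes), so the numbers were taken to pair them by batch. After batch means were removed, r was -0.0445 in batch 1 and 0.0787 in batch 2. Alternatives were the batch term, replicate block, DESeq2 1.42.0, scalings, filters, thresholds and each library left out. Fits without the filter for Sox9, Ptf1a and Nr5a2 under other settings, and relabelling within batch, were added after seeing the data. The procedure was tested on simulated data with 200 changed genes.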

Additional observations from a re-analysis of the deposited data

Results flagged for a closer look

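In groups of 4 libraries, 72 group values were checked for a library far from the other 3 and 9 stood out. Of these, 3 are 1 or 2 counts against libraries at 0, where any read stands apart. For groups whose values vary, chance gives about 1 in 20. Among the 9 genes, control replicate 1 stood apart for Sox9 and Ptf1a (0.0212 CPM each, 1 count) and for Rbpjl (0.0425 CPM, 2 counts), with the other control libraries at 0. Klf4 replicate 4 stood apart for Nr5a2 at 0.209 CPM (11 counts).

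Control replicate 1 stood apart for Myt1 at 182.9 CPM. Control replicate 2 stood apart for Nkx2-2 at 138.95 CPM, Tspan8 at 0.144 CPM and Clu at 205.7 CPM. Klf4 replicate 2 had the fewest counts of its group, 45417853. The plasmid effect on Klf4 itself was larger in batch 2 than in batch 1 by 0.371 on the log2 scale (edgeR interaction, adjusted p = 0.0057).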

How the results depend on the processing

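Over 55 results, 732 of 770 alternative values counted as unchanged. For fold changes, this meant keeping the direction and the side of the threshold. For numbers of called genes, it meant staying within a factor of 1.5 of the main value. For levels per kb, it meant staying within the SD. Among the fold changes, 3 values changed sign. These were values of Bhlha15, not called in any fit, which was -0.0307 without control replicate 2, -0.0147 without control replicate 3 and -0.012 without Klf4 replicate 3, with 0.0302 as its highest value when a library was left out. Prox1 stayed called in every alternative run, with log2 fold changes from 0.895 to 0.969. With the replicate block, 6284 genes were called against 6684, and the block changed no other call among the 9 genes than that of Nr5a2 in the fit without a filter. Without a batch term 4116 genes were called, with 3 of the endocrine commitment genes (6 with it) and 4 of the progenitor genes (10 with it). At an adjusted p under 0.01, 6 progenitor genes were called. Scaling by abundant genes moved the calls to 4370 higher and 1644 lower, from 3856 and 2828.

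Of the 9 genes, DESeq2's Wald test called 4 and edgeR without a filter called 4, in both cases Nr5a2, Prox1, Ptf1a and Sox9. Leaving out each library gave 1 to 2 calls, the second being Ptf1a where it passed the filter. Among the acinar genes, the fit without a filter called 1 (Zg16, named after its value was seen), and leaving out each library gave 0 to 1. Batch-term calls ranged from 1 to 2 when each library was left out. The cause of these shifts was not tested. With at most 18 counts per library, Sox9, Ptf1a, Nr5a2, Neurog3, Cpa1 and Rbpjl are limited by depth.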
